A study of Mus musculus with 1152 samples.

Results

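The 36 genes described here make cholesterol and the lipids of myelin. They were taken as a fixed list of symbols from a table of 46517 genes, and all 36 were in it. The list holds 18 enzyme genes of cholesterol synthesis, 4 genes that regulate sterol synthesis or carry sterols, 10 genes of fatty acid synthesis and 4 genes of sphingolipid synthesis. Their levels were compared across oligodendrocyte precursors, committed precursors, mature oligodendrocytes and fibroblasts of the adult mouse brain.

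Myelin is a stack of membrane that oligodendrocytes wrap around axons, and it is richer in cholesterol, long-chain fatty acids and galactolipids than most membranes. Little cholesterol crosses from blood into brain, so brain cells make their own from acetyl-CoA through mevalonate, squalene and lanosterol. The SREBP transcription factors switch this pathway on when membrane sterol is low, and the INSIG proteins hold them back when it is high. Galactosylceramide and sulfatide, the characteristic sphingolipids of myelin, carry very long and often hydroxylated fatty acids.

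The wells held single fluorescent cells sorted from 2 mouse lines on a C57BL/6 background, adult animals of both sexes, and were sequenced by SMART-seq2, in which the whole cDNA of each well is amplified. In Pdgfra-H2BGFP mice a nuclear green protein reports the receptor gene Pdgfra, and in the line written Tagl-CREERT2;Ai14 an inducible Cre switches on a red protein. Cells of both lines came from vascular fragments of digested brain, pulled down with beads against the endothelial protein CD31. The labels assign no well to a line, an animal or a plate, so the whole table is 1 sample. There is no replicate check, no test was made, and intervals below cover counting error only. Intervals on shares of wells take the wells as independent draws, which the labels cannot show, so they do not cover differences between animals or sets.

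The 1152 wells fall into 3 sets of 384, named 1025s_182s, 600s_182s and 613s in the column names, and 857 wells had at least 50000 reads (50002 to 1451280, median 279874). Wells were gated by 5 standard markers per cell class, none of which is among the 36 genes. The gate gave 218 precursor wells, 74 committed precursor wells, 267 mature oligodendrocyte wells and 84 fibroblast wells. The gate itself requires markers of a class to be high in it, so their levels describe the classes only. Pdgfra was at 1289 CPM (reads scaled to the total of the class) in precursor wells, Enpp6 at 1794 CPM in committed wells, Mog at 2240 CPM in mature wells and Dcn at 2736 CPM in fibroblast wells. Single markers did not all separate the classes. The committed marker Neu4 had 1034 CPM in precursor and 1104 CPM in committed wells. The mature marker Mobp had 799 CPM in precursor, 535 CPM in committed and 4776 CPM in mature wells. Pdgfra had 413 CPM in fibroblast wells. The classes were spread unevenly. Set 600s_182s held 175 of the precursor, 64 of the committed, 59 of the mature and 17 of the fibroblast wells, while 1025s_182s held 17, 3, 86 and 42 in the same order and 613s held 26, 7, 122 and 25. Median depth was 264021 reads in precursor, 478249 in committed, 337008 in mature and 271932 in fibroblast wells. Values were therefore repeated within each set that held at least 5 wells of both classes.

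Promoters of 29 of the 36 genes were matched in RefSeq (GRCm38.p6), as the 250 bases before each start. They are shown because the sterol genes are textbook targets of the SREBP factors, which work with the CCAAT-binding factor NF-Y at many of these promoters. On either strand, CCAAT lay in the windows of 22 of the 29 genes, against 37.5% of 27025 genes with a window of this length. It lay in 17 of the 18 sterol genes matched, in 3 of 8 fatty acid genes and in 2 of 3 sphingolipid genes. The sterol regulatory element spelled TCACNCCAC was found in 1 of the 29, Hmgcs1, as TCACCCCAC 128 bases before the start, against 1.22% of all genes. The E-box CACGTG lay in 6 of the 29, against 6.86%. These are matches of letters within the windows and do not show binding. Hmgcs1 (chr13:119690101-119690350, plus strand), Mvd (chr8:122443423-122443672, minus) and Lss (chr10:76531355-76531604, plus) are sterol enzyme genes called higher in committed than in precursor wells. Ugt8a (chr3:125938653-125938902, minus) and Elovl7 (chr13:108214154-108214403, plus) are genes of myelin galactolipids and long fatty acids. The windows shown do not represent their groups. Ugt8a is the 1 matched sphingolipid gene without CCAAT, which Gal3st1 and Cers2 hold. Elovl1 is among the 3 of 8 fatty acid genes that hold it. Capitals mark CCAAT, or ATTGG on the other strand, and the sterol regulatory element, and the last 2 windows hold neither.
Hmgcs1: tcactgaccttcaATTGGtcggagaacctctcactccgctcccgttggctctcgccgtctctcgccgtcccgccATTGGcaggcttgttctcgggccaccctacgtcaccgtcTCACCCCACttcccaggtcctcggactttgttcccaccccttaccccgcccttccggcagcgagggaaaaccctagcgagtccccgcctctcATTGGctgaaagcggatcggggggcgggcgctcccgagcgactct
Mvd: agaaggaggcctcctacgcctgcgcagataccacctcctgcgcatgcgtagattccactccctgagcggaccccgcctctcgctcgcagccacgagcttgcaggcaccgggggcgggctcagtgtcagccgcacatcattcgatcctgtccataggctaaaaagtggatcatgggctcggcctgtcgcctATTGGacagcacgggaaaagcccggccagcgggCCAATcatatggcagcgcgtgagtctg
Lss: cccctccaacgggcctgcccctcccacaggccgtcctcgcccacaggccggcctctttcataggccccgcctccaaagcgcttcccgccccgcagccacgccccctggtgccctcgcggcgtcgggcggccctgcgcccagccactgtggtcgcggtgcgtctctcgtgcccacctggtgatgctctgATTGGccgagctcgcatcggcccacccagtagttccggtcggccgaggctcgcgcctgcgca
Ugt8a: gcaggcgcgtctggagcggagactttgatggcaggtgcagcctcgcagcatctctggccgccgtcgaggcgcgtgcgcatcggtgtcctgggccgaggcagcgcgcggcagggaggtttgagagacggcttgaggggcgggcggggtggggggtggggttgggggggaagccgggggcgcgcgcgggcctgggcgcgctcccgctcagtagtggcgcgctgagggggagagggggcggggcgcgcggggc
Elovl7: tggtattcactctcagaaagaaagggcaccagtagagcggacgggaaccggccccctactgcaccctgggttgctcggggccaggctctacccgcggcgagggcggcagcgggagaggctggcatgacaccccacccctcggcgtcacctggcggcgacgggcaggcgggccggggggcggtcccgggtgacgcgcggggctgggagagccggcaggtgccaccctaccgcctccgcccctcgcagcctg

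Over all sets the sterol enzyme genes summed to 2748 CPM in precursor, 5021 CPM in committed and 4268 CPM in mature wells, against 1840 CPM in fibroblast wells. The fatty acid genes summed to 2563, 3881 and 4893 CPM along the same 3 stages and to 1669 CPM in fibroblasts. The sphingolipid genes had the widest spread, at 741, 2613 and 4605 CPM along the stages and 407 CPM in fibroblasts. Within 600s_182s, which held most committed wells, all 3 sums were higher at each stage, with sterol enzymes at 2785, 5013 and 5920 CPM, fatty acid genes at 2697, 3909 and 5300 CPM and sphingolipid genes at 767, 2515 and 5085 CPM. Within 613s the sterol enzyme sum was 2801, 4486 and 3526 CPM. Scaled by exon length, Scd2 was the top member at every stage of the lineage, at 171 CPM per kb in precursor, 270 CPM per kb in committed and 440 CPM per kb in mature wells. The next places were taken by Hmgcs1 and Fads1 in precursor wells, by Fa2h and Ugt8a in committed wells, and by Fa2h and Cers2 in mature wells. In fibroblast wells Cers2 came first at 99.5 CPM per kb, ahead of Scd2 at 78.6 CPM per kb.

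**Figure D1:**
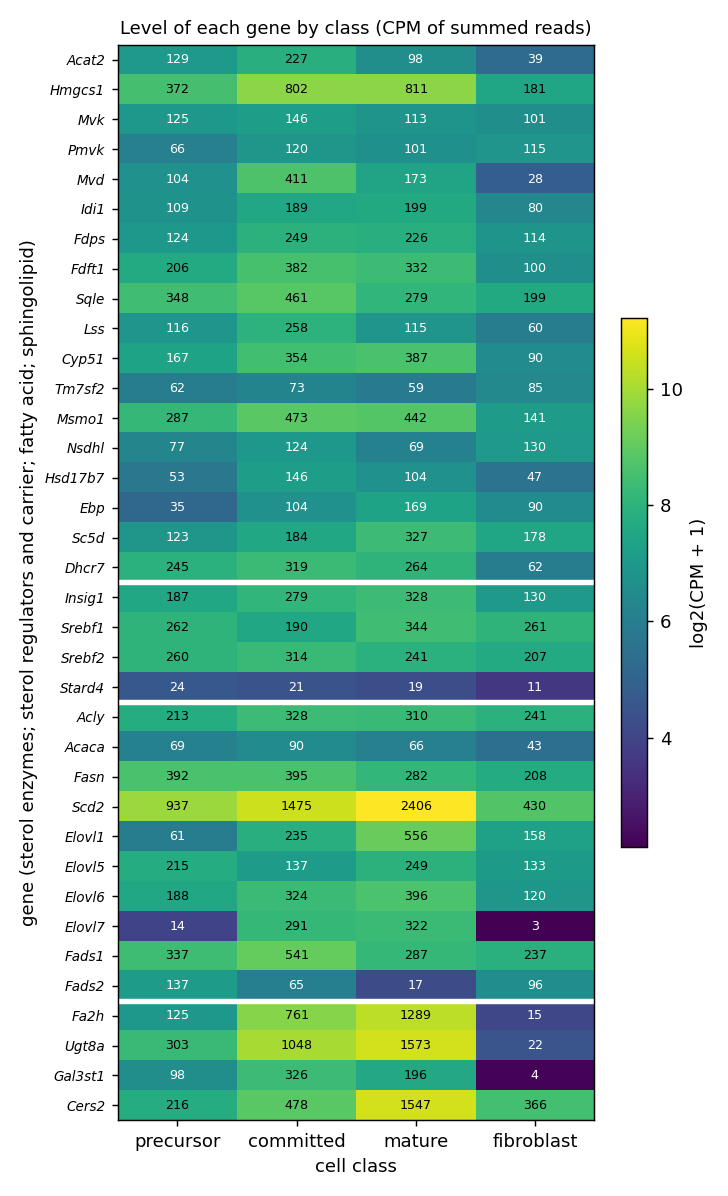
Level of each of the 36 genes in CPM of summed reads (numbers in the cells; colour is log2(CPM + 1)) in precursor, committed precursor, mature oligodendrocyte and fibroblast wells, with white lines between sterol enzymes, sterol regulators and carrier, fatty acid genes and sphingolipid genes. Mvd is brightest in committed wells, Scd2, Fa2h, Ugt8a and Cers2 are brightest in mature wells, and Elovl7 and Gal3st1 are darkest in fibroblast wells at 3.32 and 3.59 CPM.

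Between committed and precursor wells, most of the list stood higher in the committed wells. Calls rest on a rule of size and not on a test, namely a difference of at least 2-fold with the higher level at 10 CPM or more. Of the 36 genes, 12 were called higher in committed than in precursor wells, where 10.8% of all genes tested were, and 1 was called lower, where 24.3% of all genes were. The median log2 ratio of committed over precursor was 0.75 for the 36 genes and -0.16 for all genes tested. Within 600s_182s the counts were 11 higher and 1 lower (11.2% and 23.9% of all genes), and within 613s, with 7 committed wells, 16 higher and 1 lower of 35 tested (22.9% and 39.8%). The 5 astrocyte markers summed to 256 CPM in committed wells and 1154 CPM in precursor wells, with none of them at 0. Most of the precursor sum came from Aldoc (573 CPM) and Slc1a2 (531 CPM), with Aqp4, Gja1 and Gfap at 18.2, 8.09 and 23.7 CPM. The part of astrocyte RNA in these differences was not tested.

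Among the sterol enzymes, 6 of 18 were called higher in committed wells than in precursor wells and none lower. All 18 ratios were above 0 over all sets, and 17 were within 600s_182s, where that of Mvk was -0.01. Mvd, which decarboxylates mevalonate diphosphate (chr8:122433601-122443422), had the largest ratio. In committed wells it ranged from 0 to 1547 CPM with a median of 302 CPM, and in precursor wells from 0 to 1212 CPM with a median of 14.9 CPM. The ranges overlapped, but 82.4% of the committed wells lay above the precursor median. Its summed level was 411 CPM (95% interval 405 to 418) in committed wells and 104 CPM (102 to 107) in precursor wells, a 3.92-fold difference, with log2 ratios of 1.94 within 600s_182s and 2.08 within 613s.

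Ebp, the isomerase that moves the double bond of the sterol ring (chrX:8185329-8193512), came next at 104 CPM in committed and 35.4 CPM in precursor wells, a log2 ratio of 1.53. Hsd17b7, a ketoreductase of C4 demethylation (chr1:169949535-169969241), had 146 CPM in committed wells against 52.8 CPM in precursor wells. Its log2 ratio was 1.10 within 600s_182s and 4.40 within 613s, where the precursor level was 2.34 CPM. Lss, which folds squalene epoxide into lanosterol (chr10:76531588-76557138), had 258 CPM in committed and 116 CPM in precursor wells. The median committed well held 167 CPM of Lss and the median precursor well 10.8 CPM. The remaining called enzymes were Hmgcs1, which condenses acetyl units to HMG-CoA (chr13:119690379-119708260), at 802 against 372 CPM, and Cyp51, which takes a methyl group off lanosterol (chr5:4081145-4104746), at 354 against 167 CPM. Within 613s the ratio of Hmgcs1 was smaller, at a log2 of 0.20, against 1.26 within 600s_182s, and without 600s_182s it was 0.66 and not called.

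The 12 sterol enzyme genes not called had log2 ratios of committed over precursor from 0.22 for Mvk to 1.00 for Fdps. Acat2, which joins the first acetyl units, had 227 CPM in committed and 129 CPM in precursor wells. Among the enzymes of the isoprene steps, Pmvk stood at 120 against 66.0 CPM, Idi1 at 189 against 109 CPM, Fdps at 249 against 124 CPM and Mvk at 146 against 125 CPM. Fdft1, which makes squalene, stood at 382 against 206 CPM, and Sqle, the squalene epoxidase, at 461 against 348 CPM. Of the late enzymes, Msmo1 had 473 against 287 CPM, Nsdhl 124 against 77.0 CPM, Sc5d 184 against 123 CPM, Dhcr7 319 against 245 CPM and Tm7sf2 73.1 against 61.6 CPM. Reads of 4 members may be shared with other genes, because over 10% of their exon bases also lie in exons of another gene in GENCODE vM21. These are Fdps (26.7%, with a predicted coding gene on the same strand), Fdft1 (18.3%, with Ctsb on the opposite strand), Hmgcs1 (12.1%, with an antisense gene) and Tm7sf2 (12.1%, with Vps51).

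**Figure D2:**
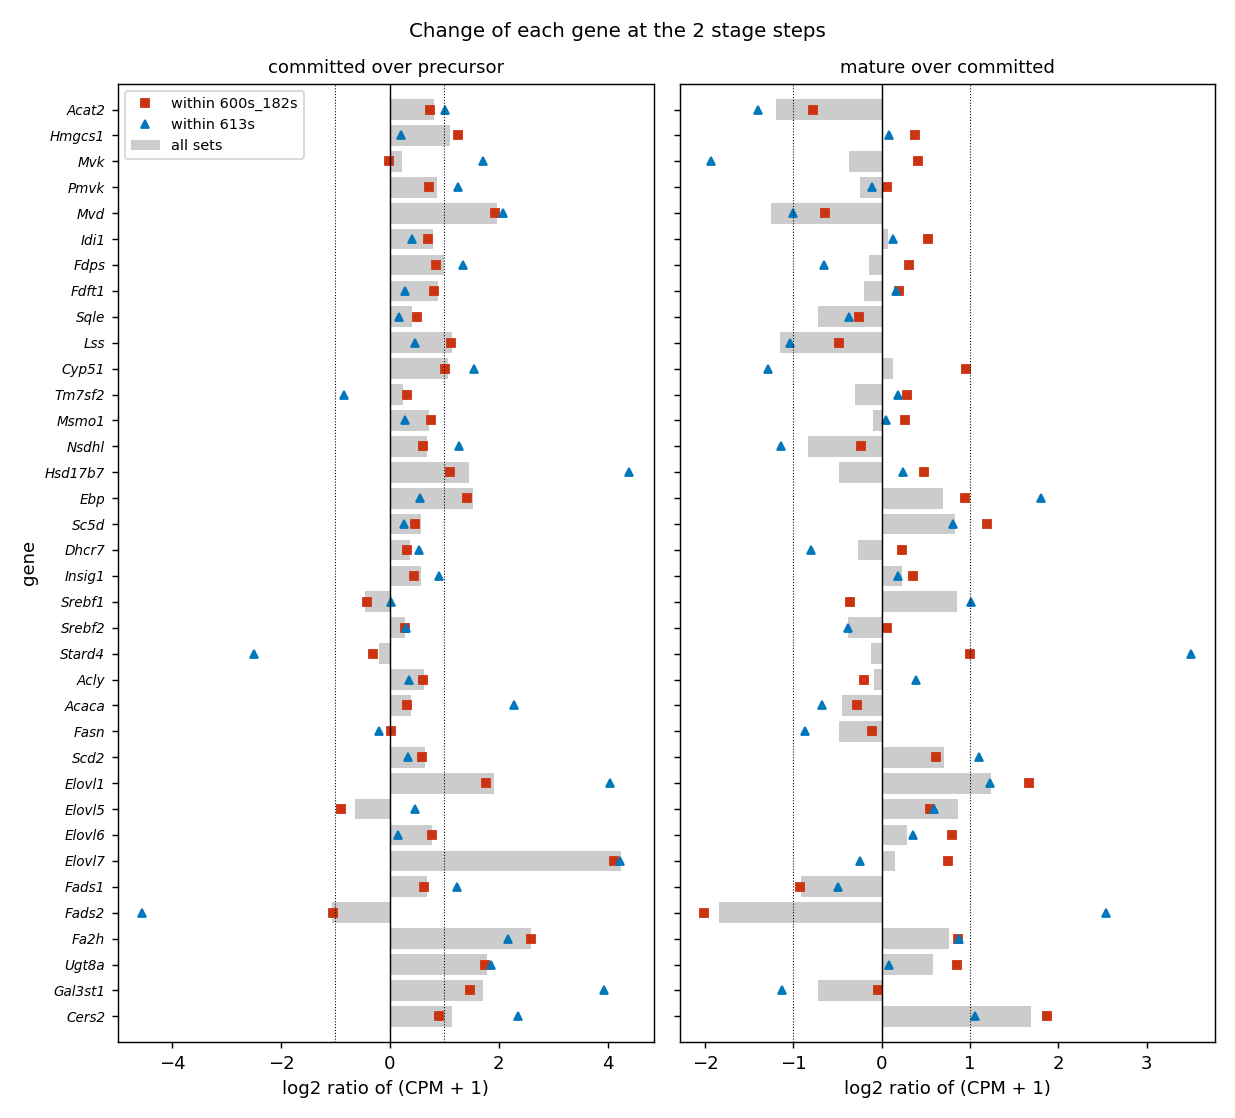
Log2 ratio of (CPM + 1) for each of the 36 genes, committed over precursor on the left and mature over committed on the right; grey bars are all sets together, squares are values within 600s_182s, triangles values within 613s, and dotted lines mark a 2-fold difference. On the left nearly all bars point right, with Elovl7 at 4.26 and Fa2h at 2.60, while on the right the squares of 13 of 18 sterol enzymes lie above 0 although only 5 of the grey bars do.

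Between mature and committed wells the direction for the sterol genes differed between sets. Over all sets, 2 of the 36 genes were called higher in mature wells (13.8% of all genes) and 4 lower (20% of all genes), with a median log2 ratio of -0.13 for the 36 genes and -0.20 for all genes. Under TMM scaling of the class sums the split was 6 higher and 2 lower, and the median log2 ratio of all genes was 0.06. The called sterol genes were all lower in mature wells. Mvd had 173 CPM in mature and 411 CPM in committed wells, Acat2 98.1 against 227 CPM and Lss 115 against 258 CPM. Lss was not called without 1025s_182s, at a log2 ratio of -0.93, nor Mvd without 613s, at -0.99. Mature wells ranged from 0 to 1710 CPM for Mvd with a median of 11.0 CPM, and 16.1% of them exceeded the committed median of 302 CPM.

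Within 600s_182s none of the 18 sterol enzymes was called lower in mature than in committed wells, and 13 of 18 ratios were above 0. Counts for the 36 genes there were 4 higher and 1 lower (13.6% and 22.2% of all genes). The ratios of Mvd, Acat2 and Lss stayed below 0 in that set, at log2 values of -0.64, -0.78 and -0.49. Cyp51 stood at 597 CPM in mature and 309 CPM in committed wells of 600s_182s, a log2 ratio of 0.95, and at 283 against 693 CPM in 613s, a log2 ratio of -1.29. Within 613s, 1 sterol enzyme was called higher and 6 lower in mature than in committed wells, and the 36 genes gave 7 higher and 7 lower (34.7% and 25.5% of all genes). Summed over the 18 enzymes, the median mature well held 4563 CPM in 600s_182s against 3731 CPM in the median committed well there, and 2050 CPM against 4368 CPM in 613s.

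**Figure D3:**
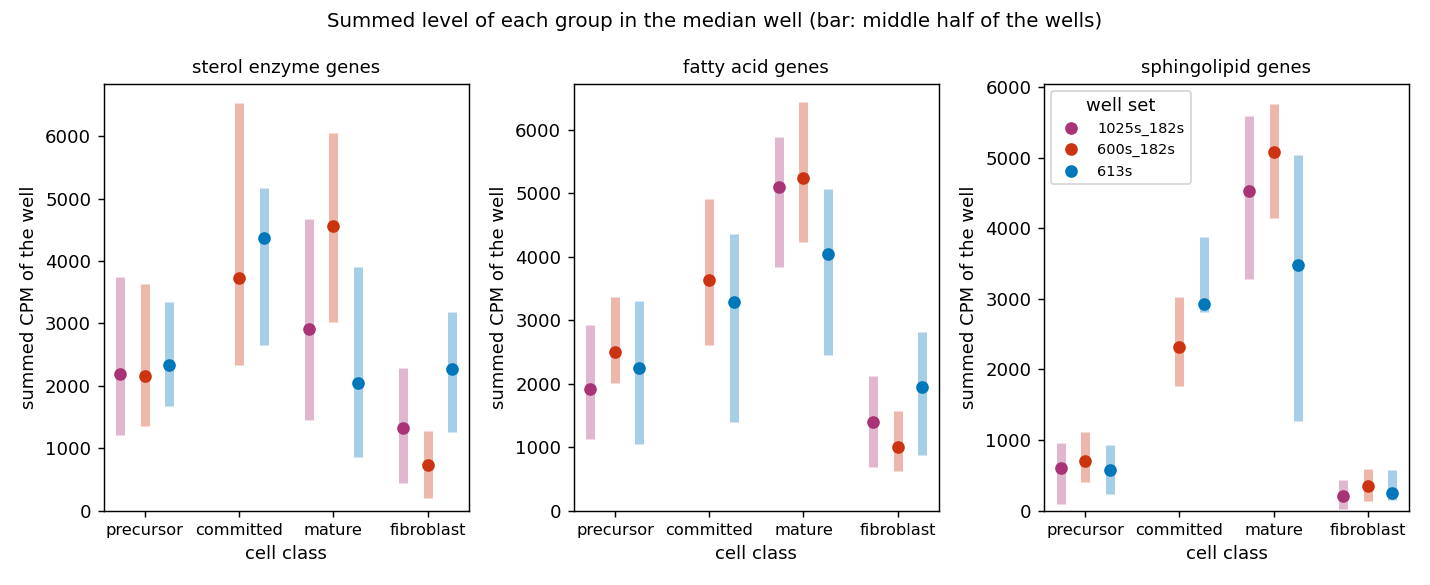
Summed CPM of the 18 sterol enzyme, 10 fatty acid and 4 sphingolipid genes in single wells, by cell class and well set; points are the median well and bars run from the first to the third quartile, with no value for the 3 committed wells of 1025s_182s. The sterol enzyme sum of mature wells is above that of committed wells in 600s_182s (4563 against 3731 CPM) and below it in 613s (2050 against 4368 CPM), while the sphingolipid sum is higher in mature than in committed wells in both.

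Along the 3 stages, committed wells had the highest level of 19 of the 36 genes (30.7% of all genes), among them 13 of the 18 sterol enzymes. Within 600s_182s the count was 10, near the share of all genes (29.4%), with the sterol enzymes Acat2, Mvd, Sqle, Lss and Nsdhl. Within 613s it was 15 (31.4%), with 10 sterol enzymes. Fdft1, Msmo1 and Hsd17b7 are among the 13 over all sets, but within each of these sets their levels were highest in mature wells. A committed level at least 2-fold above both other stages was found for Mvd and Lss over all sets. This count of 2 is near the share of all genes (5.08%), and within 600s_182s none of the 36 had such a level (4.85%). Within 613s it was found for 6 genes (12.1%), which were Acat2, Mvk, Mvd, Cyp51, Nsdhl and Gal3st1 but not Lss. Sc5d, which adds the C5 double bond (chr9:42251595-42264256), and Ebp instead stood highest in mature wells. Sc5d had 327 CPM in mature and 184 CPM in committed wells, and Ebp 169 against 104 CPM, with log2 ratios of 1.19 and 0.95 within 600s_182s.

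Set against precursor wells, mature wells had 11 of the 36 genes called higher (11.5% of all genes) and 1 lower (30.1%). The sterol enzymes called higher were Ebp at 169 CPM in mature and 35.4 CPM in precursor wells, Sc5d at 327 against 123 CPM, Cyp51 at 387 against 167 CPM and Hmgcs1 at 811 against 372 CPM. The ratio of Ebp was alike in the sets, at log2 values of 2.52 in 1025s_182s, 2.37 in 600s_182s and 2.35 in 613s. That of Hmgcs1 was 1.19, 1.64 and 0.28 in the same order. Without 600s_182s neither Hmgcs1 nor Cyp51 was called, at log2 ratios of 0.59 and 0.53. Each set by itself gave more calls, with 19 higher and 3 lower of 35 tested in 1025s_182s (25.3% and 34.7% of all genes), 18 and 1 in 600s_182s (13% and 32.5%) and 17 and 2 in 613s (23.3% and 32.5%). Under TMM scaling 18 genes were called higher and 1 lower, but the median log2 ratio of all genes also moved, from -0.37 to 0.01.

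None of the 4 regulators and carrier was called at either stage step over all sets, a count too small to set against the 10.8% and 24.3% of all genes called at the committed step and the 13.8% and 20% at the mature step. For mature over committed wells, Stard4 was called higher within 600s_182s (13.6% of all genes), and Srebf1 and Stard4 within 613s (34.7%). Srebf2, which codes for the SREBP of cholesterol synthesis, had 260 CPM in precursor, 314 CPM in committed and 241 CPM in mature wells. Within 613s it was also highest in committed wells, but within 600s_182s its level was higher at each step. Srebf1, whose SREBP governs fatty acid synthesis, had 262 CPM in precursor, 190 CPM in committed and 344 CPM in mature wells. It was lowest at the committed stage over all sets only. Its level was lower at each step within 600s_182s and higher at each step within 613s. Mature wells held 421 CPM of Srebf1 in 1025s_182s and 410 CPM in 613s but 153 CPM in 600s_182s. Insig1, which retains SREBP in the endoplasmic reticulum, had 187, 279 and 328 CPM along the stages. Stard4, a cytosolic sterol carrier, was low at 23.7, 20.6 and 18.8 CPM, and its median well held 0 CPM in precursor and in mature wells. Over all sets Stard4 and Fads2 were the 2 genes with lower levels at each step, a course taken by 27.2% of all genes. Stard4 did not take it within either set, with 29.9, 24.0 and 49.3 CPM along the stages in 600s_182s and 5.98, 0.246 and 13.2 CPM in 613s.

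Of the fatty acid genes, Elovl7, an elongase of saturated long-chain fatty acids (chr13:108214404-108285683), had the largest difference of all 36 between committed and precursor wells. Committed wells ranged from 0 to 1470 CPM with a median of 166 CPM, and precursor wells from 0 to 455 CPM with a median of 8.59 CPM. The highest precursor well was exceeded by 21.6% of the committed wells. The summed levels were 291 CPM (286 to 297) and 14.3 CPM (13.4 to 15.2), a 19.1-fold difference that held in both sets with log2 ratios of 4.11 and 4.23. Mature wells stood beside the committed ones at 322 CPM against 291 CPM, and both medians were 166 CPM.

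Elovl1, an elongase that makes very long-chain fatty acids (chr4:118428093-118432953), had higher levels at both steps, with 61.3 CPM in precursor, 235 CPM in committed and 556 CPM in mature wells. Elovl1 and Cers2 were the 2 genes at least 2-fold higher at each step (1.15% of all genes), and within 600s_182s only Elovl1 was (1.52%). Its medians were 16.2, 147 and 434 CPM, and the log2 ratio of mature over committed was 1.66 within 600s_182s and 1.23 within 613s, but 0.86 and not called without 600s_182s. Scd2, the main stearoyl-CoA desaturase of brain (chr19:44293674-44306864), had 937, 1475 and 2406 CPM along the stages. Its lowest committed well held 262 CPM, and 99.3% of mature and 98.2% of precursor wells were at or above 50 CPM. Elovl6, which extends palmitate to stearate, had 188, 324 and 396 CPM.

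Fads2, the delta-6 desaturase of polyunsaturated fatty acids (chr19:10062765-10101746), took the opposite course. It stood at 137 CPM (134 to 139) in precursor, 64.6 CPM (62.1 to 67.2) in committed and 17.3 CPM (16.5 to 18.1) in mature wells. It was the 1 member called lower at the committed step and the 1 called lower in mature than in precursor wells, where its log2 ratios were -2.65, -3.06 and -2.01 in 1025s_182s, 600s_182s and 613s. Mature over committed was -2.01 within 600s_182s but 2.54 within 613s, where mature wells held 10.5 CPM and the 7 committed wells 0.985 CPM. Leaving out 600s_182s turned the ratio of mature over committed to 0.25, and under TMM or median-of-ratios scaling Fads2 was no longer called lower in committed than in precursor wells. Fads1, the delta-5 desaturase of the same route, had its highest level in committed wells, at 337, 541 and 287 CPM along the stages. Elovl5, an elongase of polyunsaturated chains, was lowest there, at 215, 137 and 249 CPM, although within 613s its committed over precursor ratio was above 0 at a log2 of 0.47.

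Among the enzymes that make palmitate, Fasn, the fatty acid synthase, had 392 CPM in precursor, 395 CPM in committed and 282 CPM in mature wells. Acly, which supplies cytosolic acetyl-CoA, had 213, 328 and 310 CPM, and Acaca, the acetyl-CoA carboxylase, 69.0, 90.5 and 66.2 CPM. Between adjacent stages none of the 3 differed by 2-fold over all sets. Within 613s Acaca stood at 20.4, 103 and 64.2 CPM and Fasn at 468, 408 and 224 CPM along the stages.

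All 4 sphingolipid genes were called higher in committed than in precursor wells over all sets, where 10.8% of all genes were, and 3 of 4 within 600s_182s (11.2%). Cers2 was the exception, at log2 ratios of 0.90 within 600s_182s and 2.35 within 613s, and at 0.97 without 613s. Fa2h, the fatty acid 2-hydroxylase of myelin galactolipids (chr8:111345135-111393824), ranged from 131 to 1631 CPM in committed wells with a median of 729 CPM, and from 0 to 1515 CPM in precursor wells with a median of 54.3 CPM. Every committed well lay above the precursor median, while the upper parts of the ranges overlapped. The summed levels were 761 CPM (752 to 770) in committed and 125 CPM (122 to 127) in precursor wells, a 6.07-fold difference. Mature wells held 1289 CPM, a log2 ratio over committed wells of 0.76, with 0.86 within 600s_182s and 0.87 within 613s.

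Ugt8a, the ceramide galactosyltransferase that makes galactosylceramide (chr3:125865271-125938619), ranged from 44.9 to 2508 CPM in committed wells with a median of 984 CPM. In precursor wells it ranged from 3.13 to 1909 CPM with a median of 146 CPM, and 83.5% of them were at or above 50 CPM. Its summed levels were 303 CPM in precursor, 1048 CPM in committed and 1573 CPM in mature wells, with a log2 ratio of committed over precursor of 1.75 within 600s_182s and 1.85 within 613s. The ratio of mature over committed was 0.85 and 0.08 in these sets.

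Gal3st1, the sulfotransferase that turns galactosylceramide into sulfatide (chr11:3983636-3999326), peaked in committed wells. It had 98.2 CPM in precursor, 326 CPM in committed and 196 CPM in mature wells. The peak depended on the set. Mature and committed wells of 600s_182s stood at 319 and 329 CPM, and those of 613s at 139 and 306 CPM. Cers2, the ceramide synthase for very long acyl chains (chr3:95314791-95323599), had the largest ratio of mature over committed wells, 3.23-fold, with 1547 CPM (1539 to 1555) and 478 CPM (471 to 485). Mature wells ranged from 0 to 3444 CPM around a median of 1480 CPM and committed wells from 27.5 to 1767 CPM around 421 CPM, and 32.2% of the mature wells exceeded the highest committed well. The log2 ratio of mature over committed was 1.87 within 600s_182s and 1.06 within 613s.

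**Figure D4:**
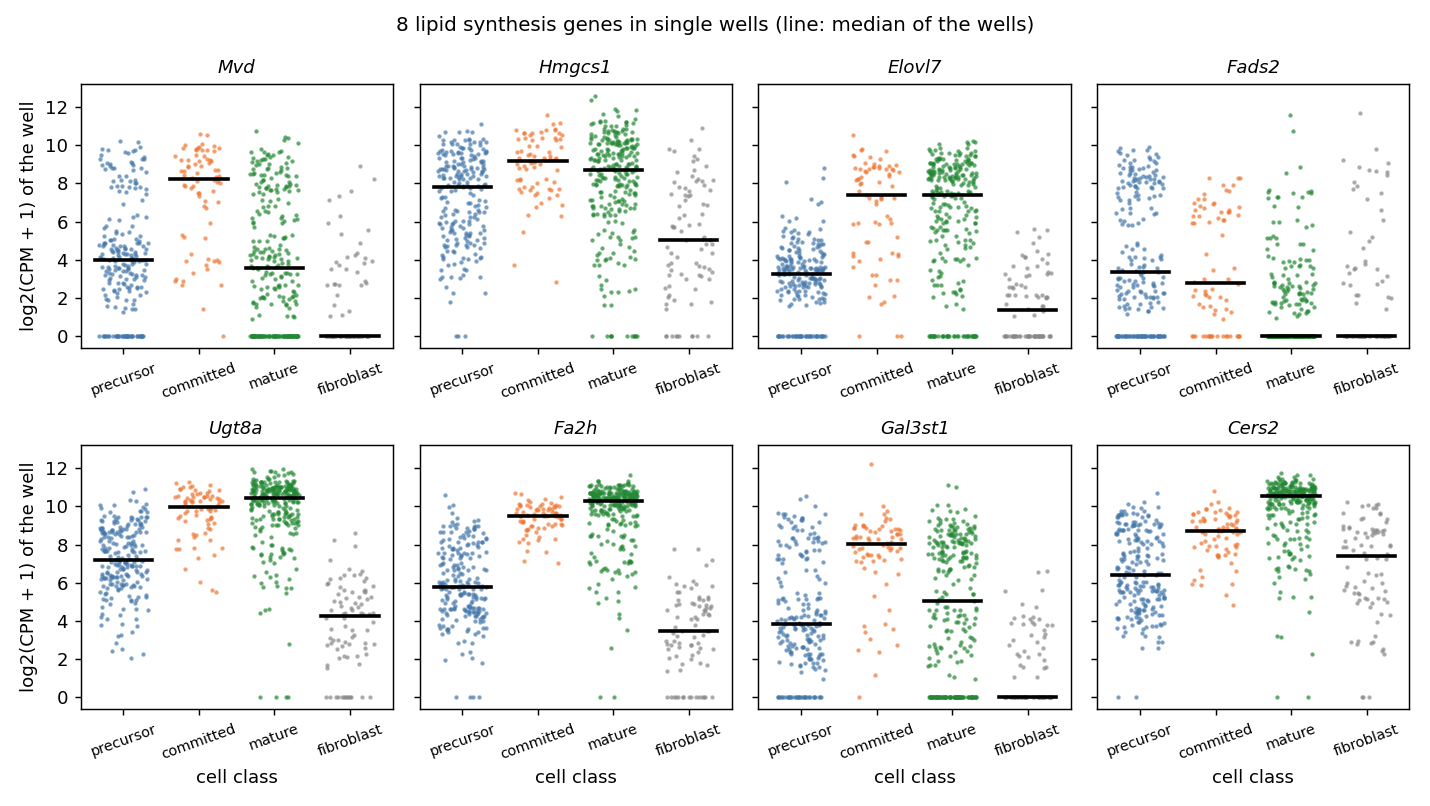
Level of 8 of the genes in single wells as log2(CPM + 1), by cell class; each point is a well and each line the median of its class. Mvd, Elovl7, Fads2 and Gal3st1 spread widely within classes, Fa2h and Ugt8a lie in a high band in nearly all committed and mature wells, and the Fads2 median is 0 CPM in mature and in fibroblast wells.

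Within a class the level of a member varied widely between wells. Thresholds for this description, 20 and 50 CPM, were chosen after the values of the wells had been seen. Over all 36 genes, the share of pairs of a well and a gene at or above 50 CPM was 42.5% in precursor, 68.8% in committed and 53.7% in mature wells, against 28.7% in fibroblast wells. Between 20 and 50 CPM lay 12.3%, 5.11% and 6.87% of the pairs along the stages and 9.09% in fibroblast wells. Above 0 but under 20 CPM lay 31.6%, 19.7% and 18.3% along the stages and 28.3% in fibroblast wells, and the rest were at 0. The median well held 15 of the 36 genes at or above 50 CPM in precursor, 25.5 in committed and 19 in mature wells, and 10 in fibroblast wells. For the 18 sterol enzymes these counts were 7, 12, 9 and 4, within 600s_182s they were 7, 12, 13 and 2, and within 613s they were 6, 12, 6 and 7. In 613s the median fibroblast well held 15 of the 36 genes and the median precursor well 13. Shares at 50 CPM were not computed over all genes. The classes also differed in the genes detected in the median well, at 7025 in precursor, 8095.5 in committed, 6210 in mature and 5356.5 in fibroblast wells. Whether these counts are particular to the members was therefore not tested.

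Over all sets, Mvd was at or above 50 CPM in 55 of 218 precursor wells (25.2%, Clopper-Pearson 95% interval 19.6 to 31.5), in 55 of 74 committed wells (74.3%, 62.8 to 83.8) and in 90 of 267 mature wells (33.7%, 28.1 to 39.7). The mature level depended on the set. The median mature well held 78.1 CPM of Mvd in 600s_182s, 8.91 CPM in 613s and 0 CPM in 1025s_182s. The median committed well held 319 CPM in 600s_182s and 194 CPM in 613s. The shares in this paragraph pool the sets, over which the classes were spread unevenly. Among wells at or above 50 CPM the median level was 332 CPM in precursor, 462 CPM in committed and 276 CPM in mature wells. Elovl7 reached 50 CPM in 10 of 218 precursor (4.59%, 2.22 to 8.27), 51 of 74 committed (68.9%, 57.1 to 79.2) and 175 of 267 mature wells (65.5%, 59.5 to 71.2). Fads2 reached it in 86 of 218 precursor wells (39.4%, 32.9 to 46.3), in 30 of 74 committed wells (40.5%, 29.3 to 52.6) and in 21 of 267 mature wells (7.87%, 4.93 to 11.8). The median of the Fads2 wells above that line was 106 CPM in committed and 279 CPM in precursor wells. Over all sets, the share of wells with Fads2 was thus close in these 2 classes, and the level in such wells was lower in committed wells.

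Depth and the number of genes detected also differed between the classes. Each well was therefore thinned to 50000 reads, which left a median of 4267 genes in precursor, 4909 in committed, 3927 in mature and 3582 in fibroblast wells. The share of thinned wells with at least 1 read was higher in committed than in precursor wells by a median of 14.1 percentage points over the members, against 6.03 points over all genes. For Mvd it was 87.8% in committed and 55.0% in precursor wells, against 74.3% and 25.2% at 50 CPM without thinning. Mature wells lay 11.4 points below committed wells at the median member and 8.70 points below at the median gene, and within 600s_182s they lay 2.15 and 0.08 points above.

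Mature wells with a high mitochondrial share stood low in the members. In 46 of the 267 mature wells at least 5% of reads came from mitochondrially encoded genes, and their median depth was 71466 reads, against 371291 reads in the other 221. These 46 wells summed to 1335 CPM for sterol enzymes, against 4388 CPM in the others, to 2904 against 4975 CPM for fatty acid genes and to 1004 against 4753 CPM for sphingolipid genes. The 5 neuron markers summed to 3821 CPM in them, against 461 CPM in the others. Of the 46 wells, 38 were in 613s, 8 in 1025s_182s and 0 in 600s_182s. Without wells of this kind the counts of mature over committed wells were again 2 higher and 4 lower. The part of these wells in the differences between sets was not tested.

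Fibroblast wells gave the level of the genes in a cell class that makes no myelin. Against fibroblasts, 12 genes were called higher in precursor wells and 2 lower (28.5% and 21.1% of all genes). Committed wells gave 21 higher and 0 lower (25.2% and 27.5%), and mature wells 18 higher and 1 lower (22.1% and 30.9%). For precursors the share called higher was near that of all genes, and the share called lower was below it. TMM scaling gave 8 higher and 2 lower for precursors, and 24 higher and 1 lower for mature wells. It moved the median log2 ratio of all genes over fibroblasts from 0.20 to 0.13 for precursors and from -0.20 to 0.13 for mature wells.

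Gal3st1, Fa2h, Ugt8a and Elovl7 separated the lineage from fibroblasts most. Gal3st1 was at 326 CPM in committed and 3.59 CPM in fibroblast wells, and Fa2h at 1289 CPM in mature and 15.4 CPM in fibroblast wells. Ugt8a had 1573 CPM in mature and 22.0 CPM in fibroblast wells, whose median well held 18.3 CPM. It was at or above 50 CPM in 17 of 84 fibroblast wells (20.2%, 12.3 to 30.4), 1 of 42 in 1025s_182s but 8 of 17 in 600s_182s. The markers of mature oligodendrocytes summed to 260 CPM in fibroblast wells, and whether reads from other wells or cells add to these low levels was not tested. Elovl7 reached 50 CPM in 0 of 84 fibroblast wells, which allows a share of up to 3.57% by the limit of 3 counts, and up to 4.30% by the Clopper-Pearson interval used for the other shares.

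Over all sets, other members were no lower in fibroblasts than in some lineage stage. Cers2 had 216 CPM in precursor, 478 CPM in committed and 1547 CPM in mature wells, against 366 CPM in fibroblast wells. Elovl1 had 61.3 CPM in precursor and 158 CPM in fibroblast wells and Ebp 35.4 CPM against 90.5 CPM, and these were the 2 genes called lower in precursor wells. All 3 lineage stages lay below fibroblast wells for Nsdhl, which had 124 CPM in committed and 130 CPM in fibroblast wells, and for Tm7sf2, which had 73.1 CPM in committed and 84.5 CPM in fibroblast wells. Pmvk was at 120 CPM in committed and 115 CPM in fibroblast wells. This order depended on the set. Within 600s_182s all 18 sterol enzymes, with Ebp, Nsdhl, Tm7sf2 and Pmvk among them, had ratios over fibroblasts above 0 at each stage. Within 613s the ratios of 10, 12 and 13 of the 18 were above 0 along the stages. Fads2 was lower in mature than in fibroblast wells, at 17.3 and 95.8 CPM.

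The fibroblast wells differed between sets, and the counts moved with them. Their 18 sterol enzymes summed to 1795 CPM in 1025s_182s, 710 CPM in 600s_182s and 2174 CPM in 613s. In 600s_182s, 24 of the 36 genes were higher in precursor than in fibroblast wells and 1 lower (47.3% and 21% of all genes), in committed wells 28 higher and 1 lower (43.7% and 25.6%) and in mature wells 31 higher and 2 lower (40.6% and 29.8%). In 613s the counts were 12 higher and 8 lower for precursor (34.2% and 30%), 16 and 3 for committed (29.4% and 40.1%) and 19 and 3 for mature wells (29.6% and 32.3%). In 1025s_182s they were 13 and 9 of 34 tested for precursor (30.7% and 34.4%) and 16 and 1 of 35 for mature wells (23.1% and 35.4%).

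Across wells of 1 class and set, a few pairs of genes varied together. This is a description on wells thinned to 50000 reads, which share a well set and may differ in RNA quality, and most pairs were only weakly related. In the 64 committed wells of 600s_182s the Spearman correlation was 0.68 for Hmgcs1 with Lss and for Fdft1 with Msmo1, and its median over 210 pairs of sterol genes was 0.27. Hmgcs1 and Msmo1 had correlations of 0.56, 0.69 and 0.56 in the mature wells of 1025s_182s (86 wells), 600s_182s (59) and 613s (122). In the 175 precursor wells of 600s_182s the highest pair was Mvd with Dhcr7 at 0.39, and the median over 120 sterol pairs was 0.18. The highest pair outside the sterol genes in committed wells was Elovl7 with Ugt8a at 0.66. In mature wells of 613s Fa2h with Ugt8a stood at 0.65, above every sterol pair there. The order was the other way in the other sets. The highest sphingolipid pair in mature wells was 0.32 in 600s_182s and 0.47 in 1025s_182s, against 0.69 and 0.56 for the highest sterol pair.

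Genes that surround these routes were taken from further lists. The list for cholesterol uptake, storage and efflux had 2 genes higher and 7 lower of 12 tested in committed over precursor wells, where 10.8% of all genes were higher and 24.3% lower. The 5 astrocyte markers summed to 1154, 256 and 578 CPM along the stages, mostly from Aldoc and Slc1a2. The part of astrocyte RNA in these values was not tested. Abcg1, a sterol exporter, had 258 CPM in precursor, 21.8 CPM in committed and 128 CPM in mature wells. Apoe, the lipid carrier of brain lipoproteins, had 1684, 268 and 1247 CPM, and Lrp1, a receptor for it, 1181, 247 and 44.0 CPM. Mylip, which marks the LDL receptor for breakdown, was at 10.4, 0.36 and 0.92 CPM along the stages and at 198 CPM in fibroblast wells. Apoe, and Galc among the other lists, were named after their values had been seen.

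Of the other fatty acid genes, 4 were higher and 1 lower of 14 tested in committed than in precursor wells (10.8% and 24.3% of all genes). Acsl3, an acyl-CoA synthetase, had 169 CPM in precursor, 1020 CPM in committed and 562 CPM in mature wells, while Acsl6, another of that family, had 90.1, 15.7 and 11.5 CPM. Of 12 other sphingolipid synthesis genes, 2 were higher and 3 lower, near the same shares of all genes. Sgms2, a sphingomyelin synthase, stood at 5.90, 35.5 and 11.8 CPM along the stages. Cers4 stood at 133, 22.1 and 36.6 CPM, and Cers1, which makes ceramides with a stearoyl chain, at 166, 370 and 31.8 CPM, so that ceramide synthase genes differed in course from Cers2. None of the 8 sphingolipid breakdown genes and none of the 5 sterol sensing genes tested was called at either stage step over all sets, where 10.8% and 24.3% of all genes were called higher and lower at the committed step and 13.8% and 20% at the mature step. Within 613s, 4 breakdown genes were higher and 2 lower at the committed step and 2 higher and 1 lower at the mature step. For the sensing genes 2 were higher and 1 lower at each. Of all genes in that set, 22.9% were higher and 39.8% lower at the committed step, and 34.7% and 25.5% at the mature step. Within 600s_182s, 1 breakdown gene was higher and 1 lower at the committed step (11.2% and 23.9% of all genes). At the mature step 1 was higher (13.6%). Galc, which breaks down galactosylceramide, had 25.4, 27.4 and 25.6 CPM along the stages and 1.95 CPM in fibroblast wells.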

How the data were processed

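The table holds raw read counts per gene for 1152 wells, deposited by the authors as whole numbers without normalization. Per the submitters' processing notes, the build was GRCm38/mm10 and the tools were Subread 1.4.6-p5 (featureCounts), SAMtools 0.1.18 and TopHat2 2.1.1. For the gene annotation, strand and reads with several matches, the settings were not given in the sources used here. The reads carry no molecular identifiers, so amplified copies count as reads.

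Wells with at least 50000 reads were kept. A well's score for a class was the mean log2(CPM + 1) of its 5 markers. A well went to the highest of 10 classes if at least 3 of those markers reached 50 CPM and its score exceeded the next by at least 1. Of the 857 wells, 643 fell into the 4 classes used, 77 into others and 137 into none. No doublet caller was run, and leaving out the 32 wells of the 4 classes with markers of another class was an alternative. Counts were summed per class, given as CPM with exact Poisson 95% intervals, and compared as log2 ratios with 1 CPM added. Wells were not tested as replicates. Thinning used seed 1, and correlations used members with a read in most wells of a class. Gene positions and exon lengths are from GENCODE vM21 on GRCm38, in which all 36 genes matched. The calling rule was run on simulated class sums with counting error only and with known changes larger than the 2-fold limit. That run does not cover variation between wells or sets, amplification, or changes near 2-fold. Analysis used Python 3.11.15 with numpy 2.4.6, pandas 2.3.3, scipy 1.17.1 and matplotlib 3.10.9, and R 4.3.3 with edgeR 4.0.16 for TMM factors only.

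The members and lists were chosen with earlier results of these data known. For each comparison and group, the 4 called genes with the largest ratios and the 2 largest in the opposite direction were described, and from each further list up to 2 called genes could be named. One further list is not reported here. The 17 alternatives changed the depth limit, the gate, the summary of wells, the scaling, the added CPM or the minimum level, or left out mitochondrial genes, mixed wells or a well set. Leaving out wells with at least 5% mitochondrial reads and leaving out cycling wells were chosen after seeing the data.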

Additional observations from a re-analysis of the deposited data

How the results depend on the processing

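Of 85 called values of single genes, 54 kept their call and 81 their sign in all 17 alternatives. With the median CPM of wells in place of summed reads, 30 genes were higher and 0 lower in committed than in precursor wells, 15 lower in mature than in committed wells, and 17 higher and 3 lower in mature than in precursor wells. Against fibroblasts that summary gave 21 higher and 0 lower for precursor, 33 higher for committed and 0 lower for mature wells. That summary also moved the median log2 ratio of all genes, to 1.68 for committed over precursor wells (-0.16 with summed reads), -1.52 for mature over committed wells (-0.20) and 0.26 for mature over precursor wells (-0.37). Over fibroblasts it moved to 1.10 for precursor, 3.27 for committed and 1.44 for mature wells (0.20, 0.02 and -0.20). Whether the counts under that summary are particular to the members was not tested. The same summary turned the precursor over fibroblast ratios of Ebp and Elovl1 to 0.28 and 0.094. TMM gave 0 lower in committed than in precursor wells, 6 higher and 2 lower in mature than in committed wells, and 18 higher in mature than in precursor wells. Median-of-ratios scaling gave 0 lower in committed than in precursor wells, 19 higher in mature than in precursor wells and 7 higher in precursor than in fibroblast wells. These scalings moved the median log2 ratio of all genes for mature over precursor wells to 0.01 and 0.03, against -0.37 without them. The cause of these differences was not tested. Shares of all genes called were not computed under the alternatives, so their counts of members have no such share beside them.

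Leaving out each well set in turn gave 3 to 7 genes lower in mature than in committed wells, the highest without 600s_182s. Against fibroblasts, 1 to 7 were lower in precursor wells, 0 to 2 in committed wells and 1 to 2 in mature wells. The ratio of Fads2 for mature over committed wells ran between -2.23 and 0.25, and that of Stard4 for precursor over fibroblast wells between -1.23 and 1.55, the reversed values being those without 600s_182s. No paired analysis was possible because all wells belong to 1 sample. The 74 committed wells, 7 of them in 613s and 3 in 1025s_182s, limit every comparison with that class.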
